A study of Rattus norvegicus with 6 samples.

Results

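In rat thyroid RNA, 10 LIM domain genes of muscle and stroma were followed: Fhl1, Fhl2, Fhl3, Csrp1, Csrp2, Csrp3, Pdlim3, Pdlim5, Pdlim7 and Ldb3. They were taken by gene symbol as 10 of the 15388 genes of the count tables, and each symbol was found in all 6 libraries. The set was chosen by family and with the measured difference between late pregnant and non-pregnant thyroid known, so the values of that difference, and counts of how many of them met the rule used to call genes, are given below as a description only, with no p for any of them. Thyroids came from adult female Sprague-Dawley rats, 3 non-pregnant (NP) samples and 3 samples of day 18 of pregnancy (late pregnant, LP), where day 1 was the day of the vaginal plug. The labels name no transgene or drug in either group. RNA of thyroid tissue was read as polyA-selected RNA-seq, and the unit behind each value is the number of reads counted on a gene.

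A LIM domain is a pair of zinc fingers that binds other proteins. Proteins built on it hold actin filaments to the Z-disc of striated muscle, to the dense bodies of smooth muscle and to the adhesions and stress fibres of fibroblasts, and several also enter the nucleus as cofactors of transcription. FHL proteins consist of LIM domains alone, CSRP proteins carry a pair of LIM domains with glycine-rich stretches, and the PDLIM proteins and Ldb3 join a PDZ domain to 1 or more LIM domains and bind alpha-actinin. The thyroid consists mainly of follicular epithelium, with C cells, vessels and connective tissue, and it lies against the striated muscles of the neck.

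The stretches before the transcript starts are shown for the genes that hold a CArG box, the site of serum response factor in many muscle genes, since muscle and stromal genes of this kind are known targets of that factor. In the RefSeq promoter table (assembly GRCr8), 8 of the 10 genes had an entry, with 10 windows in all, and Csrp3 and Pdlim3 had none. The 250 bases upstream of each start were searched on both strands. A CArG box (CC and GG around a run of A and T) was present in 4 of these 10 windows, from Fhl1, Fhl2 (both starts) and Ldb3, against 501 of all 33469 windows (1.5%). In the sequences, each written toward the transcript start, capitals mark that box.
Fhl1 promoter, chrX:139638246-139638495, plus strand: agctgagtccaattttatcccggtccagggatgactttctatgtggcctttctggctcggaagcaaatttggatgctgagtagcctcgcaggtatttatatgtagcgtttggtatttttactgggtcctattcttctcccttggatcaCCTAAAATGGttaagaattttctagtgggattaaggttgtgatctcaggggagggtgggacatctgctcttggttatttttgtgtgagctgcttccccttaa
Fhl2 promoter, chr9:52954541-52954790, minus strand: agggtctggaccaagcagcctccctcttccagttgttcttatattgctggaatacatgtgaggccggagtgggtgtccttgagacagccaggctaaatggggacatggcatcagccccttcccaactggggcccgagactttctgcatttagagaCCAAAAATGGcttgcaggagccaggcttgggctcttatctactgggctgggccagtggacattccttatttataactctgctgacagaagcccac
Fhl2 promoter, chr9:52923327-52923576, minus strand: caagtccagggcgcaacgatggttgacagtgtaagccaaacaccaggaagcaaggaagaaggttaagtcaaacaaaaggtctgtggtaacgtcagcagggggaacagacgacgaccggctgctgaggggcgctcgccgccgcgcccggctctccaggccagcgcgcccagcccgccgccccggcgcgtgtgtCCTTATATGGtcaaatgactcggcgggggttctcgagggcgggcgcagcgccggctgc
Ldb3 promoter, chr16:9924680-9924929, minus strand: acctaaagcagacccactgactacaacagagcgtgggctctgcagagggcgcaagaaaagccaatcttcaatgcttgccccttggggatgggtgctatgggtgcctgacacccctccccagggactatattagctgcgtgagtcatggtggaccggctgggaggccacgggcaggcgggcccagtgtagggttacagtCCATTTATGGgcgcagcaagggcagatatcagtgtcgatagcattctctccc
The box began 102 bases before the start in Fhl1, 95 and 58 bases in the Fhl2 windows, and 52 bases in Ldb3. The binding motif of MEF2 factors was present only in the first Fhl2 window among these genes (2.96% of all windows), as was the MCAT motif CATTCC (12.1% of all windows). The E-box CANNTG was found in windows of Fhl1, Fhl2, Csrp1 and Pdlim5, and in 65.5% of all windows. These are matches of letters near annotated starts on another assembly than the one on which the reads were counted.

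Libraries held 2752144 to 2965936 reads in NP and 3224104 to 3449857 in LP, and 3 reads in a library, taken as the smallest level that the depth can show, corresponded to 0.889 to 1.07 CPM (counts scaled to a library of standard size), which allows for error of counting alone. Replicates 2 and 3 of NP differed by no more than sampling noise (chi-square per degree of freedom 1.02), and so did replicates 2 and 3 of LP (0.995), whereas replicate 1 stood apart from both in each group (3.7 to 4.11). Each such pair was therefore counted as 1 sample, so that a mean ± SD has n = 2, and values of all 3 libraries are printed. The edgeR fit that gave each log2 fold change, SE and adjusted p still took all 6 libraries as separate samples. Its SE and adjusted p can therefore be too small. Its log2 fold change also differs from the ratio of the printed means, in which such a pair counts as 1 sample. The labels call the libraries repeats of a group, and nothing there states how a library maps to an animal, so p-values measure a spread that may be technical. Tg (thyroglobulin), the defining gene of follicular cells, was abundant in all libraries, with 674258 to 682409 reads in NP and 781929 to 791841 reads in LP. Of 9 follicular genes listed, 0 differed by more than 2-fold between LP and NP. Slc5a5 and Tshr were lower in every LP library (log2 fold change -0.94 and -0.68), and Nkx2-1, Duox2 and Duoxa2 were higher (0.28, 0.29 and 0.48).

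Markers of muscle moved both with pregnancy and with the replicate number. Skeletal muscle markers that are shared by fibres or typical of fast fibres (8 of 12 listed were in the table) summed to 11.4, 63.9 and 61.7 CPM in NP replicates 1, 2 and 3, and to 2310, 2200 and 2250 CPM in LP, with 6 of the 7 tested more than 2-fold higher in LP (edgeR, adjusted p below 0.05). Of these 6, 5 had no NP library at the level of the low-count filter and were tested only because they were high in LP. By these criteria 4.90% of all genes tested were higher in LP. The remaining tested marker, Acta1 (skeletal alpha-actin), did not rise (log2 fold change 0.11, SE 0.65, edgeR adjusted p = 0.93). It had 0 reads in both replicate 1 libraries. Its level in replicates 2 and 3 was 54.4 and 47.3 CPM for NP, against 55.1 and 54.9 CPM for LP. Reads of Acta1 can be hard to part from those of other actin genes, but whether this happened here was not tested. Without Acta1, the NP sums were 11.4, 9.5 and 14.4 CPM and the LP sums 2310, 2150 and 2190 CPM. Markers of slow fibres, 4 of 6 in the table, summed to between 0.328 and 1.64 CPM in NP and between 186 and 199 CPM in LP, and also passed the filter through LP alone. The fast myosin Myh1 had 0 reads in each NP library and 105 to 119 reads in LP. The cardiac-restricted markers, 5 of 7 in the table, summed to 5.36, 6.55 and 10.8 CPM in NP and 21.7, 25.5 and 25.8 CPM in LP. Of them Myl4 had 1, 0 and 3 reads in NP libraries and 38, 56 and 53 in LP libraries (more than 2-fold higher, edgeR adjusted p = 9.68e-08, tested through LP alone), Tnnt2 had 12 to 28 reads in every library, Tnni3 0 to 7, Nppa 0 to 3 and Myl7 0 or 1. Smooth muscle markers other than desmin and synemin, which striated muscle also makes, followed the replicate number: 0 of the 7 genes differed by more than 2-fold between LP and NP, and they summed to 267, 1910 and 1830 CPM in NP replicates 1, 2 and 3, and to 205, 1890 and 1770 CPM in LP. Fibroblast markers summed to 1170, 2090 and 2040 CPM in NP and 1430, 2360 and 2280 CPM in LP, again lowest in replicate 1, and endothelial markers summed to 408 to 414 CPM in NP and 334 to 354 CPM in LP. Of the 5 endothelial genes, 0 differed by more than 2-fold. Kdr, Tek and Emcn were lower in every LP library (edgeR adjusted p = 0.0013, 0.000213 and 0.000132), as were 18.9% of all genes tested. Cdh5 and Vwf overlapped between the groups (log2 fold change 0.01 and 0.15, edgeR adjusted p = 0.93 and 0.353). The part that these lists have in the results on the LIM domain genes was not tested.

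**Figure D1:**
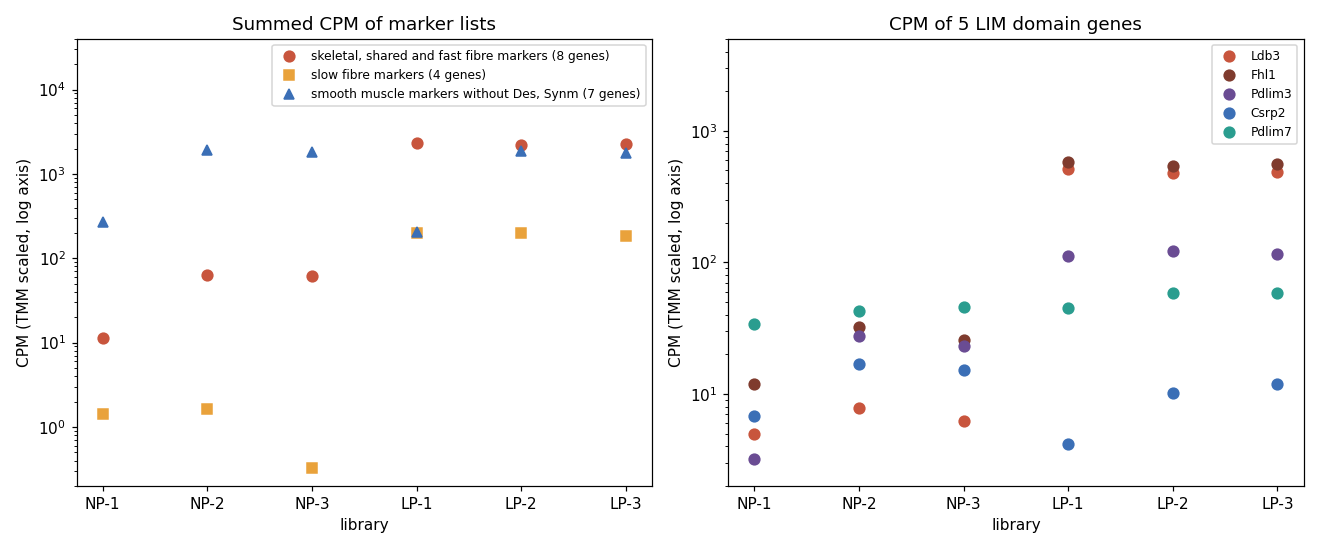
Left, summed CPM of 3 marker lists in each library (log axis). Right, CPM of 5 LIM domain genes in the same libraries (log axis, TMM-scaled); Ldb3 and Fhl1 separate LP from NP as the skeletal lists do, whereas Csrp2 is lowest in replicate 1 of both groups, as the smooth muscle list is. Pdlim3 does both: it is higher in LP, and its lowest value, 3.22 CPM, is in NP replicate 1.

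The criteria used to call a gene were a change of more than 2-fold and an adjusted p below 0.05 in the edgeR fit over all genes. By count, 6 of the 10 genes met them on the higher side in LP (Fhl1, Fhl2, Fhl3, Csrp3, Pdlim3 and Ldb3), and 0 on the lower side. The criteria were met by 4.90% of the 11738 genes tested in the higher direction and 0.537% in the lower direction; since the genes were chosen with this contrast in view, the count is no test of them and nothing is read from it against these shares. Every LP library lay above every NP library for 7 of the 10 (21.1% of all genes tested), every LP library lay below for 1, Csrp1 (18.9%), and the groups overlapped for Csrp2 and Pdlim7. The median log2 fold change of the 10 genes was 2.06, with a range from -0.57 to 6.25, and that of all genes tested was -0.009. All 10 passed the filter on low counts, but Csrp3 did so through LP alone, with no NP library at the level required, and Fhl2 and Fhl3 reached that level in only 2 of 3 NP libraries. In bulk tissue RNA, a change in the number of cells of a type and a change in the RNA of each cell cannot be told apart.

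**Figure D2:**
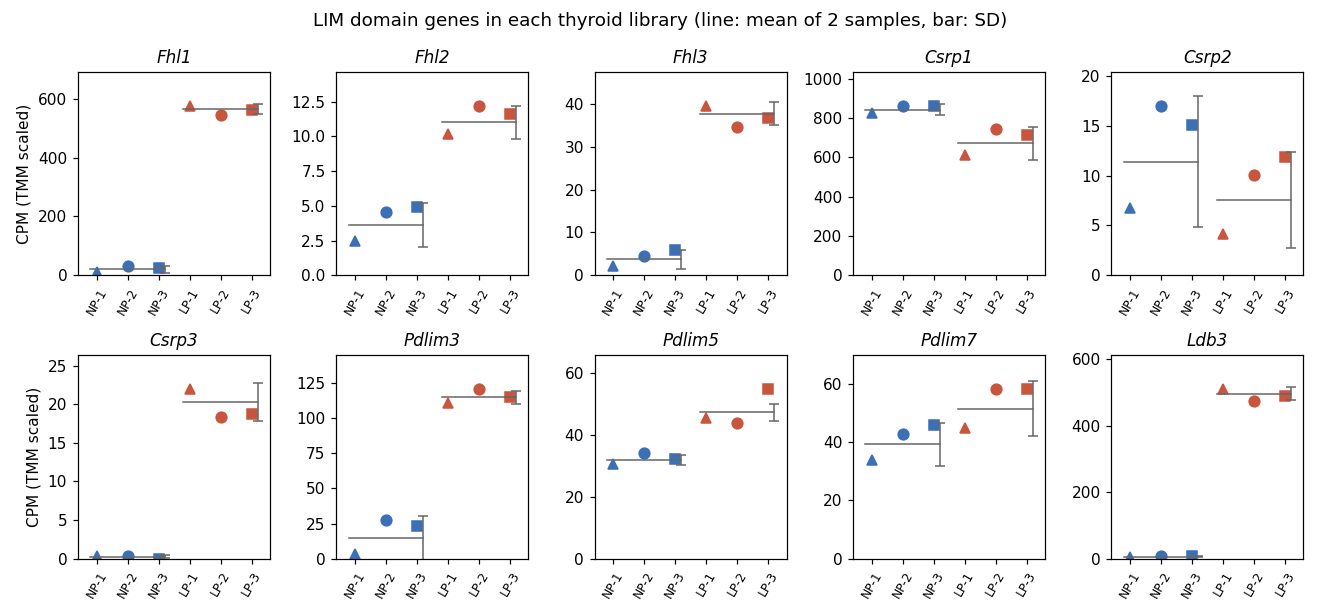
CPM (TMM-scaled) of the 10 LIM domain genes in each library, with blue for NP, red for LP, triangles for replicate 1, circles for replicate 2 and squares for replicate 3; lines and bars are the mean ± SD of n = 2 samples per group, the bars are cut at 0, and each panel has its own axis. Fhl1, Fhl2, Fhl3, Csrp3, Pdlim3 and Ldb3 lie clearly higher in LP, Csrp1 lies lower, and Csrp2 and Pdlim7 overlap.

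Fhl1, the FHL protein typical of skeletal muscle, had 33, 99 and 79 reads in NP replicates 1, 2 and 3 against 1804, 1833 and 1892 in LP. On the CPM scale this was 20.5 ± 12 in NP and 564 ± 17 in LP (SD, n = 2). The log2 fold change of the edgeR fit over all 6 libraries was 4.57 (SE 0.16), or 23.7-fold. All LP libraries were far above all NP libraries, and within NP replicate 1 was the lowest by more than the distance between the others.

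Fhl3, which is also known from skeletal muscle and binds actin and nuclear factors, had 6, 14 and 18 reads in NP against 124, 117 and 124 reads in LP. Its mean level was 3.7 ± 2.2 CPM in NP and 37.7 ± 2.7 CPM in LP (SD, n = 2), with a log2 fold change of 3.10 (SE 0.20). The groups did not overlap, and NP replicate 1 was again the lowest library. Fhl2, the member best known from heart and a cofactor of androgen receptor and serum response factor, was counted sparsely: the NP libraries held 7, 14 and 15 reads, the LP libraries 32, 41 and 39. It differed least among the FHL genes, at 3.63 ± 1.6 CPM in NP and 11 ± 1.2 CPM in LP (log2 fold change 1.48, SE 0.26). All LP libraries were above all NP libraries, and replicate 1 was the lowest in each group. The remaining FHL genes, Fhl4, a testis gene, and Fhl5, a cofactor in germ cells, had 0 to 5 reads in every library and were below the filter.

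The CSRP genes did not move together. Csrp3, the muscle LIM protein of the Z-disc of striated muscle, had 1, 1 and 0 reads in NP against 69, 62 and 63 reads in LP. With 2 NP reads in all against 194 in LP, the ratio of the levels was 87.4, with a 95% exact interval of 23.9 to 727 from counting error only. The groups were far apart, and the LP libraries agreed closely, at 18.4 to 22.0 CPM.

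Csrp1, the widely made member of the family that binds alpha-actinin and zyxin in smooth muscle and other adherent cells, had 2309, 2631 and 2624 reads in NP against 1919, 2513 and 2409 in LP. Its level was 843 ± 26 CPM in NP and 671 ± 83 CPM in LP (SD, n = 2), and the log2 fold change was -0.30 (SE 0.059), so that LP lay below NP in every library but by far less than 2-fold. Csrp2, known from vascular smooth muscle and hepatic stellate cells, had 19, 52 and 46 reads in NP against 13, 34 and 40 in LP. Its mean was 11.4 ± 6.6 CPM in NP and 7.56 ± 4.8 CPM in LP, and the log2 fold change of -0.57 carried an SE of 0.32. The groups overlapped, and the gap that stood out was the one between replicate 1 and the others: replicates 2 and 3 held 2.37 times the CPM of replicate 1 in NP and 2.64 times in LP.

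Ldb3, also called ZASP or Cypher, ties alpha-actinin to the Z-disc and is restricted to striated muscle. It had 14, 24 and 19 reads in NP against 1598, 1604 and 1643 reads in LP. The level was 6.03 ± 1.4 CPM in NP and 496 ± 20 CPM in LP (SD, n = 2), and the log2 fold change was 6.25 (SE 0.099), or 76.2-fold. No NP library came near any LP library, and the LP libraries were close to each other.

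Pdlim3, the alpha-actinin-associated LIM protein of striated and smooth muscle, had 9, 85 and 71 reads in NP against 349, 409 and 388 in LP. Its level was 14.4 ± 16 CPM in NP and 115 ± 4.7 CPM in LP (log2 fold change 2.64, SE 0.23). All LP libraries were above all NP libraries, but NP replicate 1 held 3.22 CPM where replicates 2 and 3 held 27.8 and 23.3 CPM. Pooled, NP replicates 2 and 3 held 7.95 times the CPM of replicate 1. That was the widest such gap in NP among these genes, with no ratio taken for Csrp3, which had too few NP reads.

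Pdlim5 (ENH), which brings protein kinases C to the Z-disc and is also made outside muscle, had 86, 104 and 98 reads in NP against 142, 148 and 185 in LP. This gave 31.9 ± 1.7 CPM in NP and 47.4 ± 2.8 CPM in LP, and the log2 fold change was 0.57 (SE 0.11), with LP replicate 3 the highest library and no overlap between the groups. Pdlim7 (Enigma), a widely made scaffold of actin fibres, had 95, 131 and 140 reads in NP against 140, 196 and 196 in LP. Its level was 39.2 ± 7.4 CPM in NP and 51.4 ± 9.5 CPM in LP (log2 fold change 0.39, SE 0.12). The groups overlapped at NP replicate 3 (46.0 CPM) and LP replicate 1 (44.7 CPM), and replicate 1 was the lowest library of each group.

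**Figure D3:**
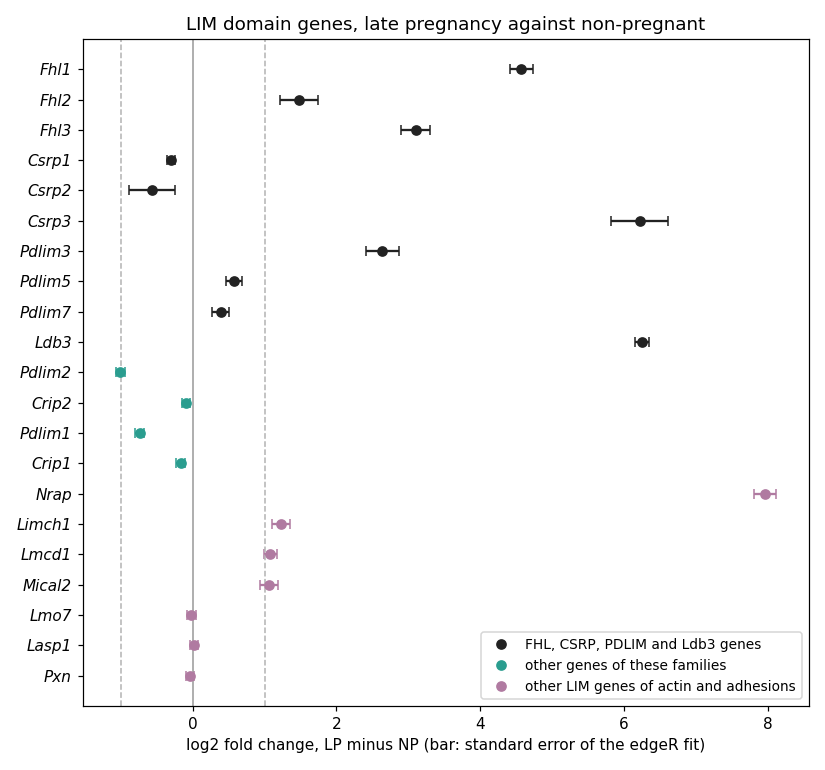
Log2 fold change of LP over NP (x axis, points) with the standard error of the edgeR fit (bars) for the 10 LIM domain genes and for genes named from the other LIM lists; dashed lines mark a 2-fold change. The 6 genes past that line among the 10 run from 1.48 for Fhl2 to 6.25 for Ldb3, Nrap lies at 7.96, and Pdlim2 lies at -1.01 on the other side.

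The size of the ratio between groups depended on the replicate number, since NP replicate 1 held few reads of several of these genes. For Pdlim3, LP was 34.7 times NP in replicate 1 and 4.62 times in replicates 2 and 3 pooled. The same ratio was 48.9 and 18.9 for Fhl1, 18.5 and 6.81 for Fhl3, and 102 and 68.3 for Ldb3. For these genes the difference in CPM was much closer between the numbers. LP exceeded NP by 108 CPM in replicate 1 and by 92.6 CPM in replicates 2 and 3 for Pdlim3, and by 564 and 523 CPM for Fhl1. For Ldb3 these differences were 505 and 474 CPM, and for Fhl3 37.5 and 30.5 CPM. Where NP is a small share of LP, as in Fhl1 and Ldb3, the difference follows the LP level. No conclusion is therefore drawn from this closeness. Pdlim5 and Pdlim7 had like ratios in both, 1.48 and 1.49 for the former and 1.32 and 1.31 for the latter. Their differences were 14.6 and 16.3 CPM for Pdlim5 and 10.8 and 13.7 CPM for Pdlim7. In all, replicate 1 was below replicates 2 and 3 in both groups for 5 of the 10 genes (Fhl2, Csrp1, Csrp2, Pdlim3 and Pdlim7), against 14.5% of all genes tested. Fhl1, Fhl3 and Ldb3 were lowest in replicate 1 of NP only: in LP, replicates 2 and 3 held 0.959, 0.902 and 0.943 times the CPM of replicate 1. For Ldb3 (14, 24 and 19 NP reads) and Fhl3 (6, 14 and 18) the counts were small. Whether their gaps in NP exceed counting error was not tested. With replicate 1 of both groups left out, the count was 6 again, with the same genes.

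**Figure D4:**
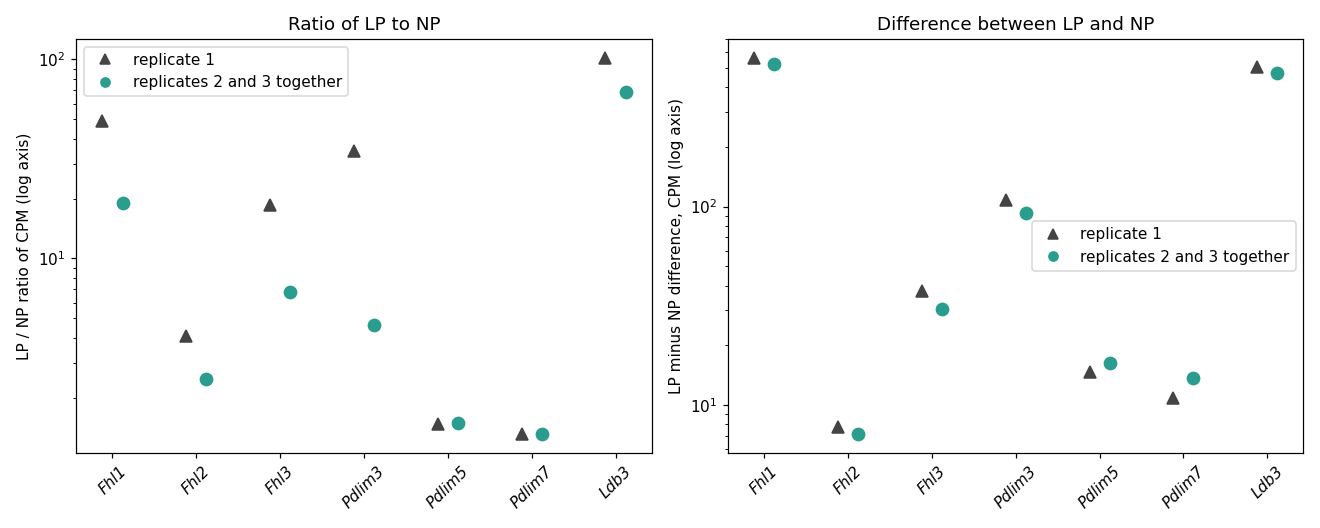
For the 7 genes that were higher in LP and had more than 2 NP reads, left, the LP to NP ratio of CPM, and right, the LP minus NP difference in CPM, both on log axes, for replicate 1 (triangles) and for replicates 2 and 3 together (circles). The ratio of Pdlim3 differs most, 34.7 against 4.62, while its difference in CPM is 108 against 92.6.

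Other genes of the same families were taken as a list of 8, of which 5 passed the filter. This list, those below and the marker lists were also chosen with earlier results of these data known. Their counts and adjusted p are therefore given as a description. In the edgeR quasi-likelihood test with Benjamini-Hochberg adjustment, 0 of the 5 rose and 1 fell past the criteria. Of all genes tested, 4.90% rose and 0.537% fell past them. The median log2 fold change of the 5 was -0.18. Pdlim2 (Mystique), which is abundant in epithelial and blood cells, had 435, 443 and 418 reads in NP against 229, 243 and 243 in LP. Its level went from 148 ± 10 to 72.6 ± 0.77 CPM (SD, n = 2; log2 fold change -1.01, SE 0.064, adjusted p = 1.45e-09), with every LP library below every NP library. It sat at the edge of the 2-fold limit: without NP replicate 1 the log2 fold change was -0.96, and with replicate 1 of both groups left out it was -0.97, so that it no longer counted. Pdlim1 (CLP36, the member of epithelium and platelets) was also below NP in every library, with 531, 573 and 536 reads in NP against 369, 372 and 346 in LP (log2 fold change -0.74, SE 0.062, adjusted p = 5.52e-08), but did not reach 2-fold. Pdlim4 (RIL), at 13, 41 and 36 reads in NP against 17, 43 and 28 in LP, overlapped between the groups and was lowest in replicate 1 of each (-0.18, SE 0.33, adjusted p = 0.744). For Crip1 and Crip2 the log2 fold changes were -0.17 (adjusted p = 0.0616) and -0.09 (adjusted p = 0.309), and Crip3 had 0 or 1 read in every library.

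Of 34 other LIM proteins of actin filaments and adhesions, 33 were in the table and passed the filter. By the same edgeR test, 4 rose past the criteria (12.1%, against 4.90% of all genes tested) and 0 fell (against 0.537%). The median log2 fold change was 0.02. Nrap, which anchors actin at the ends of striated muscle fibres, rose from 10, 2 and 6 reads in NP to 1699, 1686 and 1694 in LP, or 2.44 ± 1.6 to 522 ± 29 CPM (log2 fold change 7.96, SE 0.15, adjusted p = 6.81e-17). The others rose by little more than 2-fold. Lmcd1, a regulator of GATA6 in heart and smooth muscle, went from 77, 84 and 81 reads to 173, 199 and 196 (1.08, SE 0.092, adjusted p = 7.43e-08), and Limch1, an activator of non-muscle myosin, from 41, 49 and 49 to 123, 107 and 132 (1.23, SE 0.13, adjusted p = 1.64e-06). Mical2, an oxidase of actin, went from 51, 55 and 42 reads to 108, 123 and 113 (1.06, SE 0.13, adjusted p = 7.08e-06), but stayed under 2-fold without NP replicate 3 (0.94). In these 3 genes, unlike in Pdlim3 and Csrp2, replicate 1 was not below both others in both groups. When the fold itself was tested against 2, Nrap alone was left. The most counted genes among those that were not called had small log2 fold changes: Pxn (paxillin) had -0.04 (adjusted p = 0.632), Lasp1 0.02 (adjusted p = 0.838) and Lmo7 -0.02 (adjusted p = 0.89).

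Partners of these proteins were taken as a list, here called Z-disc partners, although its Mybpc1 and Mybpc2 belong to the thick filament. It named 21 genes, with 18 in the table and 15 past the filter. Of these, 11 were higher past the criteria and 0 lower, but 7 of the 11 (Actn2, Tcap, Myoz1, Myoz3, Ankrd1, Mybpc1 and Synpo2l) had no NP library at the level of the low-count filter and entered the test only through LP. Among the 8 with such a library, 4 were called (Actn3, Neb, Flnc and Synpo2). Of all genes tested, 4.90% were higher and 0.537% lower past the criteria. Over the 15 genes, so chosen in part by their LP level, the median log2 fold change was 4.85, also with the 2 genes without NP reads set to the lower bound that 3 reads over the NP group allow. Actn2 and Actn3, the alpha-actinins of striated muscle that Ldb3 and Pdlim3 bind, had 2, 2 and 6 and 20, 13 and 14 reads in NP. In LP, Actn2 had 1453, 1502 and 1500 reads (log2 fold change 8.60, SE 0.14, adjusted p = 8.14e-18), and Actn3 had 1216, 1210 and 1179 reads (6.10, SE 0.11, adjusted p = 4.75e-17). Neb (nebulin), the ruler of the thin filament, rose from 27, 21 and 30 reads to 3990, 4114 and 3963 (7.12, SE 0.086, adjusted p = 3.97e-19). Tcap (telethonin), a titin-binding protein that also binds Csrp3, had 1, 0 and 0 reads in NP against 408, 442 and 406 in LP. A further 2 genes had 0 reads in NP: Myoz3, of the calcineurin-binding calsarcins, had 59, 75 and 81 reads in LP, and Mybpc1, the slow myosin-binding protein C, had 37, 50 and 44. The alpha-actinins of non-muscle cells did not rise: Actn1 had 887, 974 and 1018 reads in NP against 701, 836 and 885 in LP (-0.40, SE 0.062, adjusted p = 8.26e-05, short of 2-fold), and Actn4 had a log2 fold change of -0.11 (SE 0.049, adjusted p = 0.109). Palld (palladin), a partner of alpha-actinin in stress fibres, had 0.45 (SE 0.16, adjusted p = 0.0443), also short of 2-fold. With replicates 2 and 3 summed, its adjusted p in the edgeR test was 0.111. Csrp1 and its partner Actn1 thus both lay lower in LP in every library, as did Actn4 and 18.9% of all genes tested.

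Of 17 transcription factors and cofactors that act with these proteins or on muscle genes, 12 were in the table and 8 passed the filter. In the edgeR test 2 rose past the criteria (25%, against 4.90% of all genes tested) and 0 fell (against 0.537%). The median log2 fold change was 0.58. Mef2c, a factor of striated muscle and endothelium, had 67, 69 and 69 reads in NP against 359, 344 and 359 in LP, or 23.3 ± 0.94 and 109 ± 7.4 CPM (log2 fold change 2.22, SE 0.085, adjusted p = 1.21e-12). Nfatc2, a factor driven by calcineurin, had 13, 28 and 19 reads in NP against 38, 61 and 37 in LP (1.03, SE 0.26, adjusted p = 0.00703). Its call rested on single libraries: the log2 fold change was 0.83 without NP replicate 1, 0.97 without NP replicate 3 and 0.77 without LP replicate 2. Mef2d differed by less than 2-fold (0.65, adjusted p = 7.42e-06). Serum response factor (Srf), at 266, 315 and 283 reads in NP against 282, 308 and 326 in LP, had a log2 fold change of -0.07 (adjusted p = 0.523), and Ctnnb1 (beta-catenin), a partner of Fhl2, one of -0.01 (adjusted p = 0.948). The factors of myoblasts were at the limit of detection, with 0 to 2 reads of Myod1 and 0 to 3 of Myf5 in every library.

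The genes whose pattern over the 6 libraries was most like that of each LIM domain gene were sought among the 7942 or 7943 genes with a mean of at least 50 reads, by the root mean square difference of mean-centred log2 CPM. As the 6 libraries stand for 4 samples, this is a description. For Ldb3 they were Trdn, Kcna7 and Murc (0.136 to 0.187), for Csrp3 Fitm1, Alpk3 and Mylk2 (0.115 to 0.157), for Fhl1 Xirp1, Smtnl2 and Fndc5 (0.236 to 0.344), and for Fhl3 Cap2, Pfkm and Rbm24 (0.166 to 0.257). Svil, Bag3 and Gstm7 were the nearest to Fhl2 (0.11 to 0.121). Pdlim3 stood nearest to Synpo2 (0.191) and Des (0.214), both of which shared its low NP replicate 1: Synpo2 had 19, 120 and 107 reads in NP against 452, 539 and 551 in LP, and Des had 58, 382 and 369 in NP and 2236, 2685 and 2570 in LP. Csrp2 stood nearest to Igfbp3 (0.135), which had 161, 412 and 364 reads in NP against 96, 324 and 316 in LP, and then to Gata2 and Mrvi1. The patterns with little change had close neighbours of small change: Ptk2b, Rsbn1 and LOC100360573 for Csrp1 (0.0271 to 0.0301), Six4, Ndufb5 and Mef2a for Pdlim5 (0.0549 to 0.0623), and Sema3b, Ctsd and RGD1310587 for Pdlim7 (0.0356 to 0.0511).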

How the data were processed

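Thyroid RNA of 3 NP and 3 LP samples was sequenced (TruSeq libraries on a HiSeq system). Per the labels and the study's methods, the authors aligned reads to rn5 with TopHat 1.4.0 and deposited raw read counts per gene from HTSeq, without normalization. Each table held 15388 genes, with 1 Ensembl transcript identifier each; how that identifier was picked is not given in the sources used here.

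From the counts, a quasi-likelihood fit of edgeR 4.0.16 (R 4.3.3, limma 3.58.1; TMM, filterByExpr, all 6 libraries) compared LP with NP over the 11738 genes that passed the filter, and p-values were adjusted by Benjamini-Hochberg over all of them. A gene was called where it changed more than 2-fold at an adjusted p under 0.05. The SE is the log2 fold change divided by the root of F. CPM used library totals times TMM factors. The biological coefficient of variation was 0.0645. Gene lengths were not used, so levels are compared within a gene only.

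Replicate pairs were compared by chi-square over genes with at least 10 reads. Deviations from the group means correlated between samples of the same replicate number in the labels (0.493, 0.223 and 0.192 for replicates 1, 2 and 3). Replicate 2 of either group correlated as much with replicate 3 of the other (0.216 each way), so the values do not pair replicates 2 and 3 by number. Only replicate 1 was set apart, with -0.337 to -0.31 against replicates 2 and 3 of the other group. Alternative fits with a block for each replicate number were still run. DESeq2 1.42.0, other filters, normalizations and criteria, and leaving out libraries were further alternatives, and leaving out replicate 1 of both groups was added after seeing the data. The LIM domain genes and all lists were chosen with earlier results of these data known, and the lists by function. Named from each list are all LIM domain genes, up to 6 called genes by fold, and up to 3 of the most counted genes that were not called; further genes (Pdlim4, Crip3, Fhl4, Fhl5, Mef2d, Myod1, Myf5 and the markers) were named after their values were seen. The steps were tested on simulated counts. Promoters came from RefSeq (GRCr8).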

Additional observations from a re-analysis of the deposited data

How the results depend on the processing

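As a description of genes chosen on this contrast, the same 6 LIM domain genes were counted past the criteria under every alternative that tested them, except Fhl2 when the fold was tested against 2. Log2 fold changes over all settings ran from 6.08 to 6.43 for Ldb3, 4.24 to 4.87 for Fhl1, 2.18 to 3.08 for Pdlim3 and 1.25 to 1.64 for Fhl2. With the replicate block, 6 of the LIM domain genes were higher and 0 lower, and 576 of all genes were higher and 65 lower, against 575 and 63 without it, and it moved no count of a list. With replicates 2 and 3 of each group summed, 6 of the LIM domain genes were higher and 0 lower, with 606 and 63 of all genes. The adjusted p of Nrap in the edgeR test was then 6.95e-11, against 6.81e-17 with 6 libraries. A mean of at least 50 reads left 7 of the 10 genes tested, 4 of them past the criteria. It gave 286 higher and 29 lower of all genes, 0 lower in the remaining family, 7 higher Z-disc partners and 1 higher transcription partner. Fewer genes were tested there, but Pdlim2 still was, and its fold came out just short of the limit. Testing the fold against 2 gave 366 and 23 of all genes, 0 lower in the remaining family, 1 higher of the other LIM proteins and 1 higher transcription partner. Without a cutoff on the fold, 1 of the 10 (Csrp1) counted as lower and Pdlim5 and Pdlim7 as higher, with 1794 and 1374 of all genes, 2 lower in the remaining family, 9 higher and 4 lower other LIM proteins, 1 lower Z-disc partner and 6 higher transcription partners. Leaving out 1 library at a time gave 0 to 1 lower in the remaining family (0 without NP replicate 1) and 1 to 3 higher transcription partners (1 without NP replicate 3). With replicate 1 of both groups left out, 0 were lower in the remaining family. At this depth, Fhl2, Csrp2 and the NP values of Csrp3 and Fhl3 rest on few reads.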
